A study of Homo sapiens with 12 samples.

Results

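The 8 integrin subunits ITGA2, ITGA3, ITGA5, ITGAV, ITGB1, ITGB5, ITGB6 and ITGB8 were followed across 2 esophageal cancer cell lines in which STAT3 was targeted by siRNA. They were taken by name, as all probes annotated to those symbols alone, and made up 8 of the 20045 named genes and 16 of the 30111 probes with 1 gene symbol. All 8 had a probe bright enough to be tested in the fit of all 12 arrays, where 12322 genes were tested. OE33 is a line from a Barrett's adenocarcinoma and OE21 a line from an esophageal squamous cell carcinoma. Each line was given a pool of 4 STAT3 siRNA sequences at 100 nM in 2 transfections, or a negative control siRNA, and was read 72 h after the first transfection, per the labels' protocols. This made 4 groups of 3 arrays, which were OE33 STAT3 siRNA, OE33 control siRNA, OE21 STAT3 siRNA and OE21 control siRNA. The cells were grown in medium with fetal calf serum, no further agent is named, and the design text describes 3 independent experiments. One label calls the control treatment a scrambled vector, where the protocol gives a negative control siRNA. The lines were transfected with different reagents, DharmaFECT for OE33 and siPORT NeoFX for OE21, and a difference between lines and one between reagents cannot be told apart. Each line stands for its tumor type as 1 line only.

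Integrins are receptors for the extracellular matrix made of 1 alpha and 1 beta chain, which pair inside the cell and reach the surface only as a pair. The alpha chain largely sets the ligand. With the beta-1 chain, ITGA2 makes a collagen receptor, ITGA3 a laminin receptor and ITGA5 the classical fibronectin receptor. ITGAV pairs with several beta chains and reads the RGD peptide of vitronectin, fibronectin and the propeptide of latent TGF-beta. Its partners ITGB6 and ITGB8 are best known for releasing TGF-beta from that latent form, and ITGB5 for binding vitronectin. In squamous epithelium, integrins with the beta-1 chain sit mostly on basal cells that touch the basement membrane.

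The promoters of ITGA5 and ITGA2 are shown because these genes had differences of opposite sign between the lines. Both windows run from 250 bases before the first base of the gene to 50 bases into it (RefSeq, GRCh38.p14). ITGA5 lies on the minus strand, at chr12:54419217-54419516, and ITGA2 on the plus strand, at chr5:52989102-52989401. Capitals mark every match to the AP-1 motif TGAGTCA or the GC box GGGCGG on either strand.
ITGA5: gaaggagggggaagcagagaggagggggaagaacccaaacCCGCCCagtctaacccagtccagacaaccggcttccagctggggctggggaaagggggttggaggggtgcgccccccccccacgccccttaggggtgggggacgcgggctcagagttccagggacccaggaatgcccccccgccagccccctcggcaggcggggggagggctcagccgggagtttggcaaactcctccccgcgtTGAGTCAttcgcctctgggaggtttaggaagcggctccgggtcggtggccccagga
ITGA2: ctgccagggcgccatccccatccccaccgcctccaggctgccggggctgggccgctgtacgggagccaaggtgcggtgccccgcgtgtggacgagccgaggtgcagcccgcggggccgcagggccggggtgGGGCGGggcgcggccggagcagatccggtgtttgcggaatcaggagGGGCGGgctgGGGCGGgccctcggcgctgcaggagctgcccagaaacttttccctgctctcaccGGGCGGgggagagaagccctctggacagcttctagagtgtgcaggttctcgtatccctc
The ITGA5 window holds 1 AP-1 match, from position -6 to the first base of the gene, and 1 GC box. The ITGA2 window holds 4 GC boxes and no AP-1 match. RefSeq windows were at hand for 7 of the 8 genes, 11 windows in all. The STAT motif TTCNNNGAA, the same on both strands, was in 0 of these 11 windows and in 7.66% of 35116 promoter windows of the same table. The AP-1 motif was in 1 of the 11, that of ITGA5, and in 4.95% of all. The GC box was in 7 of the 11 and in 45.0% of all. These are matches of letters within 300 bases, and a longer promoter was not searched.

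Levels are given as log2 intensity after background correction and quantile normalization. Probes bind with different strength, so a level is compared only with the same probe on another array. RNA of whole cultures was measured, in which fewer cells of a type and less RNA per cell cannot be told apart. Between 18034 and 19149 probes per array were detected. In OE33 the first principal component set control array 2 apart, and in OE21 it placed control array 1 with siRNA arrays 1 and 2, against control arrays 2 and 3 with siRNA array 3. The squamous keratins KRT5 and KRT14 and the desmoglein DSG3 were detected on 3 arrays of either OE21 group and on 0 OE33 arrays, while the columnar keratin KRT8 was detected on 3 arrays of either OE33 group and on 0 OE21 arrays. Other markers were detected in both lines: KRT18, KRT19 and AGR2 of the columnar list on 3 arrays of every group, and likewise KRT13 and DSC3 of the squamous list. Their levels still differed. In control cells 5 of 5 tested squamous markers were called lower in OE33 and 5 of 5 columnar ones higher, against 24.2% and 25% of all genes. KRT5, KRT14, DSG3 and KRT8 passed the filter only through the line that detected them. The columnar markers KRT20, CDH17 and TFF3 were detected on 0 arrays of every group. Of 8 fibroblast markers, 6 were detected on 0 arrays in each group. The leukocyte markers PTPRC and CD3E and the endothelial markers PECAM1, CDH5 and KDR were detected on 0 of 12 arrays. The leukocyte markers CD14, ITGB2 and CD68 were detected on 3 arrays of every group, and the endothelial VWF on 3 arrays of either OE21 group and on 0 OE33 arrays.

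STAT3, the target, was read first. It stood at 9.10, 8.87 and 9.05 on the OE33 siRNA arrays, against 9.04, 10.26 and 9.36 on the OE33 control arrays. In OE21 it stood at 6.76, 6.77 and 7.47 on the siRNA arrays, against 9.23, 8.90 and 9.24 on the control arrays. The groups overlapped in OE33 and lay far apart in OE21. The log2 fold change was -0.55 (SE 0.30, 95% interval -1.25 to 0.15) in OE33 and -2.12 (SE 0.23, 95% interval -2.67 to -1.58) in OE21, with limma adjusted p of 0.991 and 0.278. Neither value was called for this probe, the brightest of the gene. Another STAT3 probe, ILMN_1663618, had -0.28 in OE33 and -2.00 in OE21, where it was called with all probes tested singly (limma adjusted p = 0.0382). The third, ILMN_2410986, had -0.55 in OE33, where its siRNA arrays lay below its control arrays (limma adjusted p = 0.989), and -2.00 in OE21 (adjusted p = 0.171).

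Among the alpha chains, ITGA5 differed most between the groups. Its probe, ILMN_1792679, read 7.04, 6.88 and 6.51 on the OE33 siRNA arrays and 6.80, 7.08 and 7.09 on the OE33 control arrays. It read 9.28, 9.13 and 8.89 on the OE21 siRNA arrays, against 7.56, 8.20 and 7.50 on the OE21 control arrays. The OE21 siRNA arrays were the 3 highest of the 12, the OE21 control arrays came next, and both OE33 groups lay below and overlapped each other. ITGA5 was detected on all 12 arrays.

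For the collagen receptor chain ITGA2 the order of the lines was turned, with OE33 above OE21. It read 10.17, 10.57 and 10.08 on the OE33 siRNA arrays and 10.08, 11.32 and 10.09 on the OE33 control arrays. On the OE21 arrays it read 9.35, 9.32 and 9.61 after the siRNA, against 9.19, 9.34 and 8.98 in control cells. Every OE33 array lay above every OE21 array, the groups within a line overlapped, and the single highest value was that of OE33 control 2.

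The laminin receptor chain ITGA3 varied little. It read 10.91, 10.97 and 10.56 on the OE33 siRNA arrays and 10.64, 10.61 and 10.88 on the OE33 control arrays. The OE21 values were 11.36, 11.29 and 11.04 after the siRNA, against 10.92, 11.05 and 10.83 in control cells. Each neighbouring pair of groups in the order of means overlapped, with OE21 siRNA cells at the top. A second ITGA3 probe was dim, detected on 0 arrays of either OE33 group, on 2 OE21 siRNA arrays and on 1 OE21 control array.

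ITGAV, the alpha chain shared by the vitronectin and TGF-beta releasing integrins, ran the same way as ITGA3. It read 9.05, 9.58 and 9.28 on the OE33 siRNA arrays and 8.88, 9.29 and 9.16 on the OE33 control arrays. In OE21 it read 9.83, 9.83 and 9.58 after the siRNA, against 9.83, 9.41 and 9.47 in control cells. Neighbouring groups again overlapped in the order OE21 siRNA, OE21 control, OE33 siRNA and OE33 control.

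Among the beta chains, ITGB1, the common partner of ITGA2, ITGA3 and ITGA5, was detected on all arrays by its brightest probe, ILMN_1723467. It read 13.36, 13.37 and 13.33 on the OE33 siRNA arrays and 13.40, 13.53 and 13.42 on the OE33 control arrays. The OE21 values were 13.07, 13.07 and 13.04 after the siRNA, against 12.76, 13.10 and 12.89 in control cells. All OE33 arrays lay above all OE21 arrays, and within OE33 the siRNA arrays lay just below the control arrays.

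The 4 ITGB1 probes did not all follow the brightest. A second probe, ILMN_1714820, read 10.95, 11.05 and 10.87 on the OE33 siRNA arrays and 11.07, 10.28 and 10.95 on the OE33 control arrays, with 10.59, 10.43 and 10.54 on the OE21 siRNA arrays against 9.92, 10.10 and 10.21 on the OE21 control arrays. Another, ILMN_1784454, read 6.27, 6.23 and 6.48 on the OE33 siRNA arrays and 6.70, 5.65 and 6.61 on the OE33 control arrays. It was detected on all 6 OE33 arrays and on 0 of 6 OE21 arrays, and the last probe on 0 of 12.

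ITGB5, the vitronectin receptor chain, was likewise higher in OE33. Its brightest probe, ILMN_1668374, read 11.59, 11.36 and 11.37 on the OE33 siRNA arrays and 11.52, 11.25 and 11.57 on the OE33 control arrays. On the OE21 arrays it read 10.88, 10.78 and 11.04 after the siRNA, against 10.01, 10.70 and 10.12 in control cells. The OE33 groups coincided, and the OE21 siRNA arrays lay between them and the OE21 control arrays without overlap. Of the other 4 ITGB5 probes, 2 were detected on 0 of 12 arrays.

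The partners of ITGAV that release TGF-beta were dim. ITGB6 read 4.36, 4.59 and 4.52 on the OE33 siRNA arrays and 4.30, 4.24 and 4.47 on the OE33 control arrays, none of them detected. In OE21 it read 5.19, 5.29 and 4.57 after the siRNA, against 4.88, 4.37 and 4.50 in control cells. It was detected on 2 of 3 OE21 siRNA arrays and on 1 of 3 OE21 control arrays. ITGB6 was therefore near background throughout, and no level is claimed for it in OE33.

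ITGB8 was slightly brighter. It read 5.25, 5.43 and 5.39 on the OE33 siRNA arrays and 5.02, 5.74 and 5.04 on the OE33 control arrays. It read 4.87, 5.09 and 5.22 on the OE21 siRNA arrays, against 4.56, 5.02 and 4.48 on the OE21 control arrays, where only 1 of 3 was detected. Neighbouring groups overlapped in the order OE33 siRNA, OE33 control, OE21 siRNA and OE21 control.

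**Figure D1:**
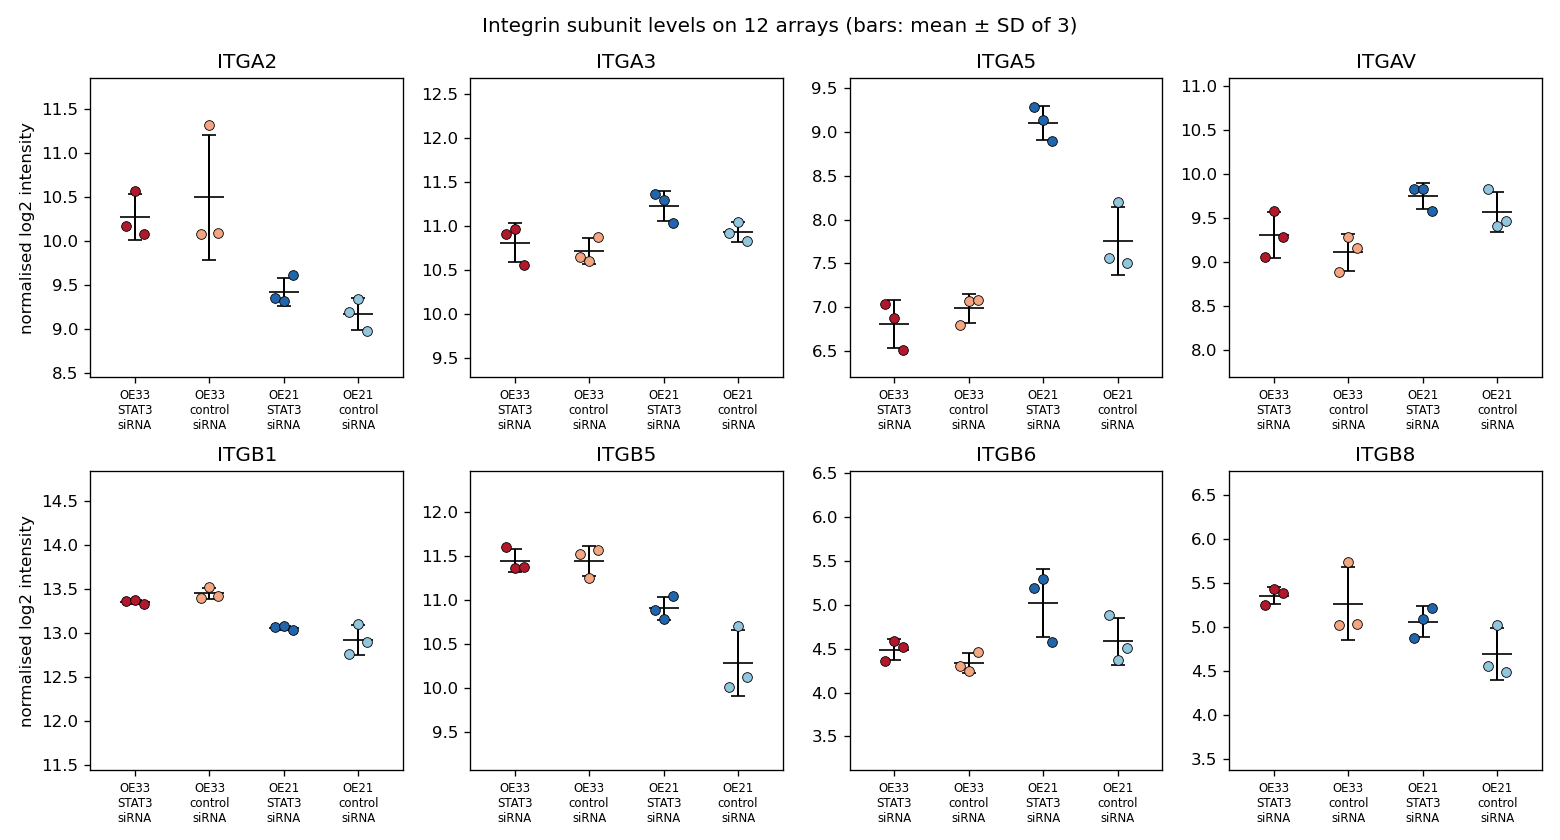
Normalised log2 intensity of the probe that stands for each of the 8 subunits, 1 panel per gene, with the 3 arrays of each group as points and the mean ± SD as bars; the vertical range differs between panels. ITGA5 stands out by its OE21 siRNA arrays at 8.89 to 9.28, while ITGA2, ITGB1 and ITGB5 have all OE33 arrays above all OE21 arrays.

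The first comparison asked how the subunits answered the STAT3 siRNA in the squamous line. Limma called 0 of the 8 members in OE21 and 0% of all 11179 genes at an adjusted p under 0.05. The member with the largest fold change was ITGA5, at 9.10 ± 0.19 in siRNA cells and 7.76 ± 0.39 in control cells (SD, n = 3 each), a log2 fold change of 1.35 (SE 0.22, 95% interval 0.82 to 1.87), or 2.54-fold. Its limma adjusted p was 0.300, and it was not called. It held rank 16 of all genes by p and rank 14 by size among those with a fold change above 0. With 3 arrays against 3, an exact permutation test of one gene cannot give p below 0.1.

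Within either side of the array split in OE21, the ITGA5 difference could only be positive, because its siRNA and control arrays did not overlap. It was 1.64 with siRNA arrays 1 and 2 set against control array 1, and 1.04 with siRNA array 3 set against control arrays 2 and 3. With these sets as a block, which was chosen after the data were seen, it was 1.34 (limma adjusted p = 0.102). The call was made, at adjusted p = 0.0470, with array weights (1.42) and, at 0.0396, in a fit of all 12 arrays (1.35).

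**Figure D2:**
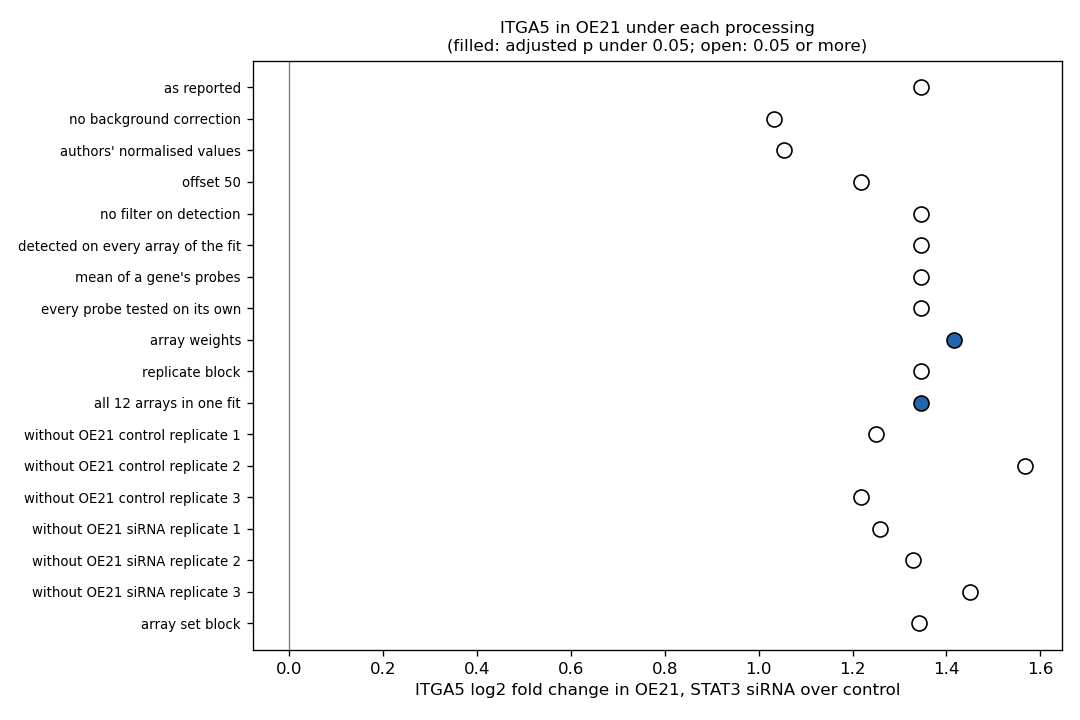
Log2 fold change of ITGA5 in OE21, siRNA over control, as reported (top) and under each alternative; filled points had an adjusted p under 0.05. The value lies between 1.03 and 1.57 everywhere, and 2 of the 17 alternatives called it.

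ITGB5 came second among the members in OE21. Its log2 fold change was 0.63 (SE 0.21, 95% interval 0.13 to 1.12), with limma adjusted p = 0.357. Its other detected probes gave 0.60 and 0.58. The 3 ITGB5 probes thus gave similar values, and 2 of them had all siRNA arrays above all control arrays.

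The remaining 6 members had smaller fold changes and overlapped between the groups on their brightest probe. Their log2 fold changes in OE21 were 0.44 for ITGB6, 0.37 for ITGB8, 0.30 for ITGA3, 0.26 for ITGA2, 0.18 for ITGAV and 0.14 for ITGB1, with limma adjusted p from 0.491 to 0.729. The second ITGB1 probe gave 0.45 (SE 0.14), with its siRNA arrays all above its control arrays. The 2 ITGB1 probes therefore differed in whether their groups overlapped.

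Of the 8 members, 8 had a fold change above 0 in OE21, against 49.5% of all genes, with a median of 0.34 against -0.003. Arrays did not overlap for 2 of 8 members and for 16.9% of all genes. An unadjusted p under 0.05 was reached by 2 of 8 members, ITGA5 and ITGB5, and by 11.3% of all genes. The members share arrays and are not replicates of one another.

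In OE33, the members lay close to their controls after the siRNA. Of the 8, 7 were bright enough to be tested within the line, all but ITGB6. Limma called 0 of 7 members and 0% of 10634 genes, and 0 of 7 members against 2.75% of genes had an unadjusted p under 0.05. Fold changes ran from -0.22 (ITGA2) to 0.20 (ITGAV), with a median of -7.27e-05 against -0.01 over all genes. ITGA5 had -0.18 (SE 0.18, 95% interval -0.60 to 0.24; limma adjusted p = 0.991). ITGB5 had 0.00 (SE 0.15), with an interval of -0.35 to 0.35.

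A single OE33 member had arrays that did not overlap, ITGB1 on its brightest probe, at -0.10 (SE 0.12), against 7.72% of all genes. The other detected ITGB1 probes overlapped, at 0.19 and 0.01. ITGA3 had 0.10 and ITGB8 0.09, neither near the threshold. The ITGA2 value rested on OE33 control 2, since it was -0.22 with that array and 0.19 without it, while ITGA5 had -0.13 without it. These intervals leave room for changes in either direction.

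**Figure D3:**
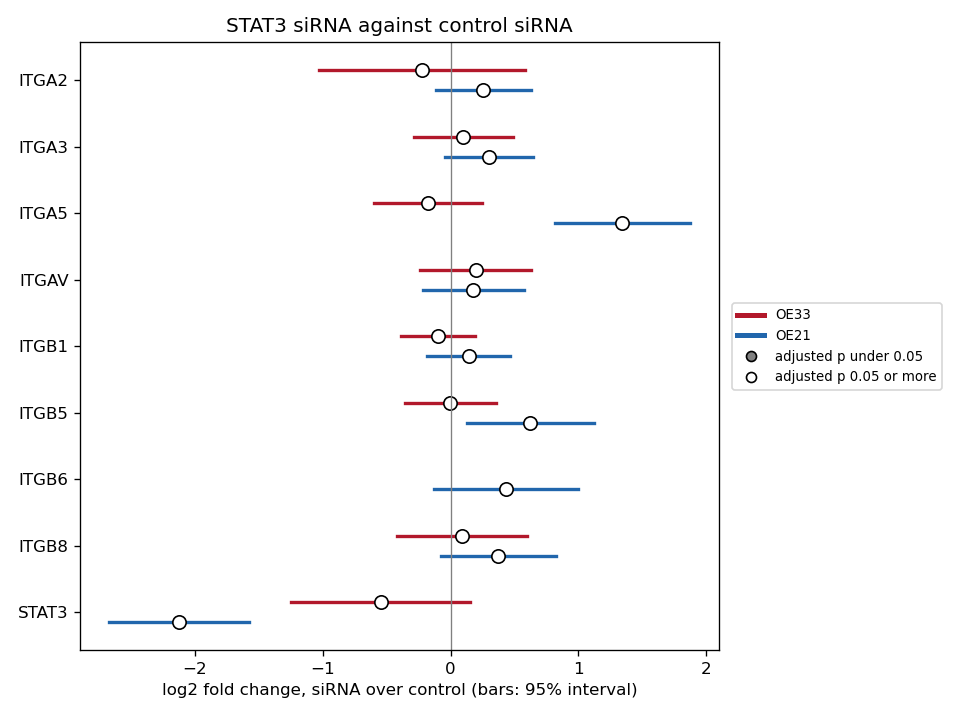
Log2 fold change of each subunit and of STAT3, siRNA over control, in OE33 (upper bar of each pair) and OE21 (lower bar), with 95% intervals; all points are open because none had an adjusted p under 0.05. ITGA5 (1.35) and ITGB5 (0.63) in OE21 are the members whose interval lies off 0; ITGB6 has no OE33 value.

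The effect of the siRNA was compared between the lines as 1 contrast in the fit of all 12 arrays, OE33 effect minus OE21 effect. The difference for ITGA5 was -1.52 (SE 0.30, 95% interval -2.17 to -0.87), rank 4 of 12322 genes by p. The limma adjusted p was 0.457. It was not called, and limma called 0 of 7 members and 0% of genes. With array weights ITGA5 was called at adjusted p = 0.0273. ITGB5 had -0.63 (SE 0.26; limma adjusted p = 0.724). STAT3 itself had 1.58 (SE 0.41; limma adjusted p = 0.574) in this contrast, not called, its fall being larger in OE21. A difference between lines and one from the unequal fall of STAT3 cannot be told apart here.

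The other members had differences from -0.48 (ITGA2) to 0.02 (ITGAV), and their intervals all included 0. An unadjusted p under 0.05 was reached by 2 of 7 members, ITGA5 and ITGB5, and by 6.73% of all genes. Above 0 lay 1 of the 7, against 48.9% of all genes, with a median of -0.28 against -0.01 over all genes. ITGB6 was left out here, as it was detected on 0 OE33 arrays. The shares over all genes did not leave out genes undetected in a line.

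Between the control cells of the lines, 4 members were higher in OE33 and 1 was lower, so that 5 of 8 were called against 49.2% of 12322 genes. By direction this was 4 of 8 higher against 25% of genes, and 1 of 8 lower against 24.2%. Arrays did not overlap for 5 of 8 members and for 55.3% of all genes. The members' share was thus near that of all genes.

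ITGA2 was higher in OE33 control cells, at 10.49 ± 0.71 against 9.17 ± 0.18 in OE21 control cells (SD, n = 3 each). The log2 difference was 1.33 (SE 0.29; limma adjusted p = 0.00251), or 2.51-fold. Without OE33 control 2, the array that stands apart, it was 0.91 and still called (adjusted p = 0.00168). ITGB5 was 2.25-fold higher in OE33, at 1.17 (SE 0.19; limma adjusted p = 0.000285), and its other detected probes gave 1.34 and 1.76.

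ITGB1 was higher in OE33 control cells by 0.53 (SE 0.13; limma adjusted p = 0.00416), or 1.45-fold. The second ITGB1 probe gave 0.69, and ILMN_1784454, detected in no OE21 group, was at least 3.31-fold higher. Such a bound compares the mean of the detected group with a floor on each array of the other. That floor is the lowest detected signal of the array, or the probe's own value where that is larger. ILMN_1784454 entered the fit only through its OE33 arrays and could only come out higher. ILMN_1723467 and ILMN_1714820, detected on all 12 arrays, were both higher in OE33.

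ITGB8 was higher by 0.58 (SE 0.21; limma adjusted p = 0.0411), with overlapping arrays and 1 of 3 OE21 control arrays detected. Without OE33 control 2 it was 0.34 and the call was lost (adjusted p = 0.142). Without OE21 control 1 or 3 the call was also lost, at 0.51 and 0.47. The ITGB8 difference is therefore one that single arrays decide.

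ITGA5 was the 1 member lower in OE33 control cells, at 6.99 ± 0.16 against 7.76 ± 0.39 in OE21 control cells (SD, n = 3 each). The log2 difference was -0.77 (SE 0.21; limma adjusted p = 0.00987), a ratio of 0.588. It was -0.81 without OE33 control 2. ITGAV (-0.46; limma adjusted p = 0.0553), ITGA3 (-0.22) and ITGB6 (undetected in OE33) were not called, although all OE33 arrays lay below all OE21 arrays for ITGAV. ITGAV was called without OE33 control 2, at -0.55 (adjusted p = 0.0389).

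**Figure D4:**
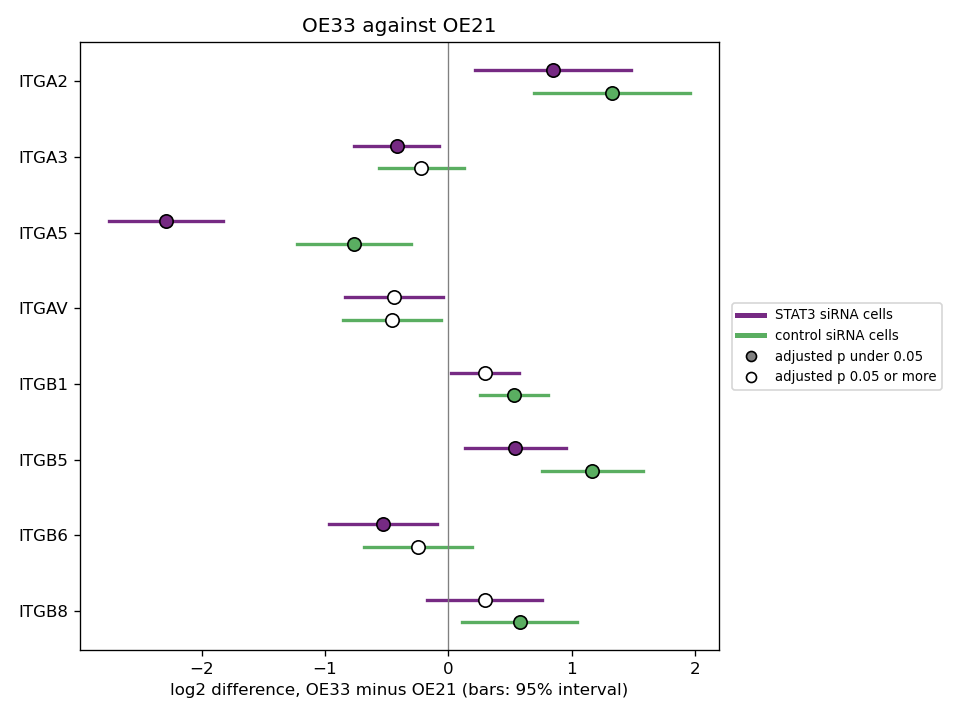
Log2 difference between OE33 and OE21 for each subunit in STAT3 siRNA cells (upper bar of each pair) and in control cells (lower bar), with 95% intervals and filled points for an adjusted p under 0.05. ITGA5 lies at -2.29 in siRNA cells and -0.77 in control cells, and ITGA2 and ITGB5 lie above 0 in both; the ITGB6 points rest on OE33 arrays on which it was not detected.

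Among the STAT3 siRNA cells, 5 of 8 members differed between the lines, 2 higher and 3 lower in OE33, against 50.8% of genes called. By direction these stood against 25.6% and 25.2% of genes. The 3 lower members include ITGB6, which was not detected in OE33. Among the 7 members detected on all 6 siRNA arrays, 2 were higher and 2 lower, against 28.1% and 23.2% of the 8895 such genes. Arrays did not overlap for 6 of 8 members, against 61.5% of genes. ITGA5 differed most, at 6.81 ± 0.27 in OE33 against 9.10 ± 0.19 in OE21 (SD, n = 3 each). Its log2 difference was -2.29 (SE 0.21, 95% interval -2.75 to -1.83; limma adjusted p = 2.76e-06), a ratio of 0.204.

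ITGA2 (0.85; limma adjusted p = 0.0287) and ITGB5 (0.54; limma adjusted p = 0.0300) were higher in OE33 siRNA cells. ITGA3 (-0.42; limma adjusted p = 0.0427) was lower, and so was ITGB6 (limma adjusted p = 0.0445). No bound is given for ITGB6, as it was detected on only 2 of 3 OE21 siRNA arrays. The ITGB6 call adds little, since it was detected on 0 OE33 arrays, was tested only through its OE21 arrays, and overlapped between the lines. These calls lay close to the threshold, and leaving out single siRNA arrays left between 1 and 5 members called. Only ITGA5 was called with each array left out in turn.

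ITGAV (-0.44; limma adjusted p = 0.0627), ITGB1 (0.29; adjusted p = 0.0699) and ITGB8 (0.29; adjusted p = 0.276) were not called in siRNA cells. The ITGB1 probe ILMN_1784454 was at least 3.52-fold higher in OE33 there, and again entered the fit only through its OE33 arrays. Called in the same direction in control and in siRNA cells were 3 of 8 members, ITGA2, ITGA5 and ITGB5, against 40.7% of genes. These comparisons use different arrays but share 1 estimate of the spread.

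Of 18 other integrin subunits, 8 were bright enough to be tested between the lines, among them ITGA6 and ITGB4, which together form the laminin receptor of hemidesmosomes. In control cells 0 were higher and 2 lower in OE33 against 25% and 24.2% of all genes. These were ITGAE, the partner of ITGB7 on lymphocytes (-0.56, SE 0.15), and ITGB7 itself (-1.09, SE 0.33). ITGB2, the leukocyte integrin chain (0.53), and ITGB4 (-0.44) were not called. In siRNA cells 0 were higher and 3 lower, against 25.6% and 25.2% of all genes, the 3 being ITGAM (-0.80), ITGB4 (-0.94) and ITGB7 (-0.84). ITGAM was detected on 1 of 3 OE33 siRNA arrays. ITGB7 was detected on 2 of them, had overlapping arrays and lay close to the threshold (limma adjusted p = 0.0497). Among the 5 subunits detected on all 6 siRNA arrays, 0 were higher and 1 lower, against 28.1% and 23.2% of such genes.

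Many matrix proteins that integrins bind were lower in OE33. Of 22 tested ligands, 2 were higher and 13 lower in OE33 control cells, against 25% and 24.2% of all genes. Of the 22, 7 were detected on 0 OE33 control arrays and passed the filter through their OE21 arrays. Among the 10 ligands detected on all 6 control arrays, 1 was higher and 6 lower, against 26.8% and 23.3% of the 8787 genes detected likewise. The basement membrane collagen chain COL4A1 was at least 26.4-fold lower, the anchoring fibril collagen COL7A1 at least 101-fold and osteopontin SPP1 at least 64.9-fold, each detected on 0 OE33 control arrays. Tenascin TNC stood at 6.43, 6.54 and 6.30 on the OE33 control arrays, against 9.47, 9.66 and 9.57 on the OE21 control arrays, a difference of -3.14 (SE 0.18; limma adjusted p = 4.38e-08). The laminin chains went both ways in OE33 control cells. LAMB3 (-1.42, with overlapping arrays) and LAMC1 (-0.71) were lower. LAMB1 (3.45) and LAMA2 (1.03, detected on 1 of 3 OE21 control arrays) were the 2 higher ligands. LAMA5 (0.56) and LAMB2 (0.37) were not called. These chains were chosen after their values were seen, LAMB3 as a chain of a ligand of ITGA3. In siRNA cells the count was again 2 higher and 13 lower, against 25.6% and 25.2% of all genes, with 4 ligands detected on 0 OE33 siRNA arrays. Among the 10 ligands detected on all 6 siRNA arrays, 1 was higher and 6 lower, against 28.1% and 23.2% of the 8895 such genes. In these cells COL4A1 was at least 15.4-fold, COL4A6 at least 16.3-fold and SPP1 at least 32.4-fold lower in OE33. COL7A1 averaged 4.65 in OE33 siRNA cells, near background with 1 of 3 arrays detected, against 11.73 in OE21 siRNA cells with 3 of 3 detected.

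The latent TGF-beta axis, which ITGAV integrins act on, was mixed. Of 8 tested genes, 3 were higher and 2 lower in OE33 control cells, against 25% and 24.2% of all genes. The inhibitory SMAD7 (-1.63, SE 0.20) and the latent TGF-beta binding protein LTBP4 (-0.82, SE 0.17) were lower. The signal carrier SMAD3 (0.85, SE 0.20) and the receptor TGFBR2 (1.00, SE 0.26) were higher. In siRNA cells 3 were higher and 3 lower, against 25.6% and 25.2% of all genes, and the lower ones included LTBP2 (-1.08).

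Cytoplasmic activators and adaptors of integrins were measured for 30 genes. In control cells 10 were higher and 5 lower in OE33, against 25% and 24.2% of all genes, or 15 of 30 against 49.2%. Among the 26 detected on all 6 control arrays, 10 were higher and 3 lower, against 26.8% and 23.3% of such genes. The 4 with the smallest p were the pseudokinase ILK (1.80, SE 0.12), the parvins PARVB (1.94, SE 0.21) and PARVA (1.08, SE 0.12), and RSU1 (1.45, SE 0.16). The 5 lower genes were KANK1 (-0.98), CAV1 (-0.91), FERMT1 (-0.51), ENAH (-1.46) and TNS4, named here after their values were seen. ENAH was detected on 1 of 3 OE33 control arrays and TNS4 on 0. LIMS1, a binding partner of ILK chosen after its values were seen, was not called (0.05, SE 0.19). ILK averaged 11.94 in OE33 control cells, against 10.14 in OE21 control cells, with no overlap of arrays. In siRNA cells the list had 8 higher and 6 lower, against 25.6% and 25.2% of all genes, and these 4 genes again had the smallest p, with ILK at 1.71 and PARVB at 2.41. The activator talin TLN1 (-0.35 in siRNA cells and 0.54 in control cells) and the focal adhesion kinase PTK2 (-0.09 in siRNA cells and 0.10 in control cells) were not called. Both were chosen here after their values were seen.

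Genes that switch integrins off or carry them through endosomes and membrane domains numbered 17. In OE33 control cells 9 were higher and 2 lower, against 25% and 24.2% of all genes, with a median of 0.81 against 0.01 over all genes. The recycling adaptor RAB11FIP1, known to carry ITGA5 with ITGB1 back to the surface, was higher by 3.87 (SE 0.28), and the tetraspanins TSPAN4 and CD151 by 2.61 (SE 0.17) and 1.39 (SE 0.14). The other tetraspanins went both ways, CD81 (0.58) and CD82 (0.81) being higher and CD9 (-1.70) lower, all 3 called and chosen here after their values were seen. MGAT5, which adds branches to the sugars of integrins, was higher by 1.99 (SE 0.16). In siRNA cells 9 were higher and 3 lower, against 25.6% and 25.2% of all genes, with CD9 at -1.79. The lines also differed in the squamous and columnar markers given above, and the part of those cell types in these differences was not tested.

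**Figure D5:**
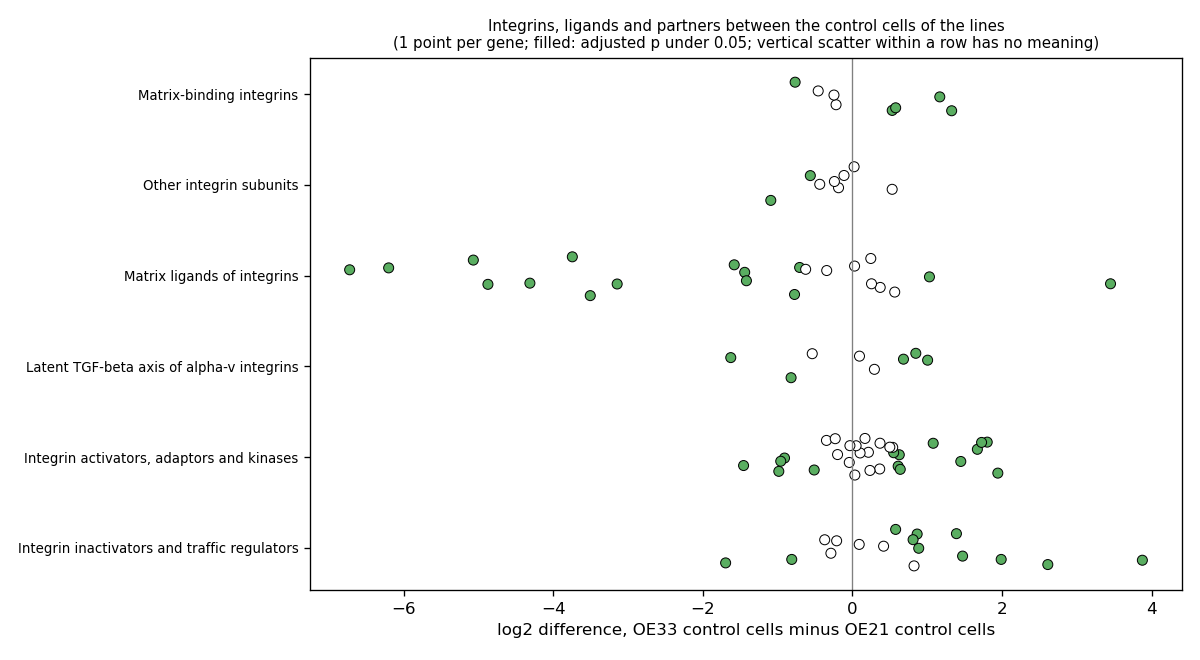
Log2 difference of OE33 control cells minus OE21 control cells for each tested gene of the 8 matrix-binding integrins and of 5 related lists. Each gene is 1 point, filled where the adjusted p was under 0.05. Genes undetected in 1 control group are at their fitted value, which is no bound. The integrins lie between -0.77 and 1.33, while matrix ligands reach beyond -6 and the inactivator and traffic list has a median of 0.81.

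After the STAT3 siRNA, 0 genes of these 5 lists were called in either line. In OE21, unadjusted p under 0.05 was reached by 1 of 7 other integrins, 4 of 22 ligands, 0 of 8 TGF-beta genes, 5 of 30 activators and adaptors and 0 of 16 inactivators and traffic genes, against 11.3% of all genes. Among ligands, SPP1 stood at 9.57, 9.75 and 9.44 on the OE21 siRNA arrays, against 10.99, 9.91 and 10.70 on the control arrays, a fold change of -0.94 (SE 0.28). COL4A1 had -0.69 (SE 0.14), COL4A6 0.84 (SE 0.23) and MFGE8, a secreted RGD protein, 0.75 (SE 0.21). The ligands of smallest p thus lay on both sides of 0.

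Among OE21 adaptors, TLN1, which opens the integrin head by binding the beta tail, read 7.65, 7.45 and 7.62 on the siRNA arrays, against 6.77, 7.17 and 6.07 on the control arrays. Its fold change was 0.90 (SE 0.27; limma adjusted p = 0.329). The docking protein NEDD9 had 1.32 (SE 0.40), KANK2 0.45 and the kinase FYN 0.79. The leukocyte integrin chain ITGAM had 0.64 (SE 0.21), ITGA6 -0.39, ITGB4 0.25 and ITGB7 -0.32. LTBP2 had 0.58, RAB11FIP1 0.68 and CD151 0.24, all below the threshold. For TLN1, NEDD9, KANK2 and ITGAM, as for ITGA5, all OE21 siRNA arrays lay above all control arrays, which 7.95% of all genes did. The list genes were named for a small p in this same comparison, so their lack of overlap is no separate result. NEDD9, FYN and ITGAM were detected on 2 of 3 OE21 control arrays.

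In OE33, unadjusted p under 0.05 was reached by 2 of 13 ligands and 2 of 27 activators and adaptors, and by none of the 7 other integrins, 8 TGF-beta genes or 15 inactivators and traffic genes, against 2.75% of all genes. The ligands were the laminin chains LAMB1 (0.44, SE 0.15) and LAMB2 (-0.68, SE 0.24). The adaptors were the actinin ACTN1 (-0.44, SE 0.16) and BCAR1 (-0.41, SE 0.17). None was called by limma, whose adjusted p was 0.991 for each. For the difference between the lines' effects, NEDD9 had -1.77 (SE 0.56), TLN1 -0.89 (SE 0.38), MFGE8 -0.85 (SE 0.30) and ITGAM -0.69 (SE 0.29), none called.

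Genes whose levels ran most like ITGA5 over the 12 arrays were sought among 8552 genes detected on all of them. The closest by Pearson correlation were HSPA5, the endoplasmic reticulum chaperone BiP (r = 0.98), MTMR11 (0.97), TPBG (0.97), the tetraspanin TSPAN9 (0.96) and UBE2Q1 (0.96). HSPA5 averaged 8.68 in OE33 siRNA cells and 8.78 in OE33 control cells, and 9.99 in OE21 siRNA cells and 9.30 in OE21 control cells. TSPAN9 averaged 9.23 and 9.25 in OE33 siRNA and control cells, and 11.17 and 10.29 in OE21 siRNA and control cells.

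With each line's mean subtracted, the closest were CLEC16A (0.96), CHPF, which builds chondroitin chains (0.94), HSPA5 (0.94), TMEM154 (0.93) and CYBA (0.93). HSPA5 was the 1 gene in both sets of 5. Of the other members detected on all arrays, ITGA3 (0.87) and ITGAV (0.70) ran with ITGA5 by level, and ITGB5 (-0.41), ITGB1 (-0.57) and ITGA2 (-0.58) against it. With line means subtracted, ITGB5 (0.85), ITGA3 (0.76) and ITGB1 (0.74) ran with ITGA5, and ITGA2 (0.37) and ITGAV (0.23) less so. These correlations describe 12 arrays that share lines, treatments and array quality, and carry no test.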

How the data were processed

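RNA of 12 cultures was measured on Illumina BeadChips. RNeasy Plus columns served for extraction and a MessageAmp kit for labelling, per the labels' protocols. The authors deposited probe intensity on a linear scale, not normalised between arrays, and a detection p-value beside it. A table of normalised intensity, also deposited by the authors, served as an alternative. The sources used here do not say how the detection p-value and the normalised values were made. The labels give all arrays the same array identifier, which leaves no slide batch to examine.

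Of 47323 probes, 4 with missing values were left out. Platform annotation gave 30111 probes 1 symbol, 8 several and 17200 none, and 30072 matched a GRCh38.p14 gene by Entrez identifier, which changed 0 symbols. The neqc function of limma 3.58.1 (R 4.3.3) corrected and normalised the intensities with an offset of 16, giving log2 values. Probes entered a fit when 3 or more of its arrays had a detection p under 0.01, and the probe with the highest mean stood for a gene. Effects of the siRNA were fitted within a line (6 arrays, 4 residual degrees of freedom), and differences between lines in 1 fit of 12 arrays (8 degrees of freedom). Two-sided tests came from lmFit and eBayes, adjusted by Benjamini-Hochberg over all genes tested, and a gene is called at adjusted p under 0.05. Where a group had 0 detected arrays of a probe, a bound or no fold is given, as described with the first such value. The procedure was tested on simulated data, and the number of arrays limits its precision.

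The 8 members, the 5 related lists and the tests were chosen with earlier results of these data known. Named genes are the members, STAT3, the 4 genes of smallest p per list and comparison, of which some are left out here, and the 5 genes most like ITGA5. Alternatives were the background correction, the authors' values, the offset, the detection filter, the probe rule, array weights, a replicate block, leaving out each array and, for the siRNA effect, a fit of all arrays. The array set block was added after the data were seen.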

Additional observations from a re-analysis of the deposited data

How the results depend on the processing

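The alternatives changed few directions and several calls. In OE21, 0 genes were called as reported, 1 with every probe tested on its own, 270 with array weights and 17 in a fit of all 12 arrays, and the last 2 alternatives each called 1 member, ITGA5. ITGA5 in OE21 had adjusted p from 0.0396 to 0.781 over 17 alternatives, with values of 1.22 to 1.57 when 1 array was left out, and all 8 members stayed above 0 in OE21 wherever they could be fitted. For the difference of siRNA effects, 229 genes and 1 member, ITGA5, were called with array weights, against 0 as reported. Among STAT3 siRNA cells, the count of members that differed between the lines was 5 as reported, 3 with no filter on detection, 8 with array weights and 3 with the replicate block, and 1 to 5 with 1 array left out. The cause was not tested. In control cells, ITGA2, ITGA5, ITGB1 and ITGB5 were called under each of 15 alternatives, ITGB8 lost its call under 8 and ITGAV gained one under 6. ITGA5 was called between siRNA cells under each of 15. Genes called between the lines ranged from 4485 to 7732 in control cells and from 4600 to 8091 in siRNA cells. Values near 0 changed sign. In OE33 after the siRNA, these were ITGB5 in the authors' values (0.0075) and with the mean of a gene's probes (0.017), ITGB1 with the mean of probes (0.036), and ITGA2 (0.14) and ITGA3 (-0.036) with array weights. With 1 array left out, OE33 values ran from -0.43 to 0.19 for ITGA2, from -0.10 to 0.062 for ITGB5 and from -0.034 to 0.33 for ITGB8. For the difference of effects, ITGAV was -0.11 and ITGB8 0.089 with array weights, and ITGAV ran from -0.12 to 0.14 with 1 array left out. Whether replicate numbers pair the samples could not be decided. Same-numbered arrays deviated together with r of 0.41, -0.36 and 0.47 in OE21 and 0.08, 0.30 and 0.11 in OE33. The highest r with another number was -0.26, 0.60 and 0.43 in OE21 and 0.11, -0.21 and 0.16 in OE33. Deviations from a mean of 3 arrays also depend on one another. With the replicate number as a block, ITGA5 in OE21 had 1.35 (adjusted p = 0.274), and no siRNA call was gained. Signal over background limits ITGB6 and ITGB8, whose probes lay near the detection limit. The array set split of OE21 and OE33 control array 2 moved with some values, and their part in the other results was not tested.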
